A study of Mus musculus with 9 samples.

Results

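The response to full-length PGC-1α was measured by RNA-seq in C2C12 myotubes, the multinucleated fibres that a mouse myoblast line forms in culture when serum is lowered. One deposited table held 3 libraries of myotubes transduced with full-length PGC-1α, here FL, and 3 of myotubes transduced with LacZ, a bacterial enzyme that served as the control. All genes with a mean normalized count of at least 10 over these 6 libraries were compared, 18227 of the 55421 genes listed. Another virus of the series, with a form of PGC-1α that lacks the C-terminal domain, was not analysed here.

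All myotubes had been differentiated for 4 days and were exposed to adenovirus for 4 h at a multiplicity of infection of 3. RNA was collected 48 h after transduction. The PGC-1α virus carried HA and Flag tags, and the promoter that drives the transgenes is not given in the sources used here. Both groups received an adenovirus and cells without virus were not compared, so effects common to both viruses do not appear, and any difference between the viruses besides the transgene goes with the group. The series' design text describes the 3 libraries per group as biological replicates, all of 1 cell line.

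PGC-1α is a transcriptional coactivator. It does not bind DNA by itself but is brought to promoters by partners such as the estrogen-related receptors (ERRs), the PPARs, nuclear respiratory factors and YY1, and it raises their target genes. In skeletal muscle it is induced by endurance exercise and is known for driving mitochondrial biogenesis, fatty acid oxidation and traits of slow, oxidative fibres.

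The libraries held 99906750 to 123446198 reads assigned to genes, and 26170 to 26957 genes had at least 1 read. Ppargc1a, the gene for PGC-1α, had normalized counts of 420, 392 and 411 with LacZ and 233696, 203341 and 214790 with FL. The FL level was 533-fold the LacZ level, and reads of the transgene and of the cells' own gene were not separated. The table gives 0 for each of the 37 genes on the mitochondrial chromosome, and all mitochondrial genes named below are nuclear genes. All 23 myotube markers were detected, and their normalized counts summed to 2636997 to 2735147 with LacZ and 1958328 to 2018186 with FL. Of markers of other cell types, 8 of 10 for fibroblasts, 2 of 9 for adipocytes, 3 of 8 for endothelium and 6 of 8 for macrophages passed the filter on low counts. Levels differed within each type. Adgre1 of macrophages and Tie1 of endothelium had at most 1 read with LacZ and 0 with FL, and Adipoq of adipocytes had 5 and 3. In contrast, Cd14 of macrophages had 1568 reads with LacZ and 1769 with FL, Vwf of endothelium 592 and 400, and Pparg of adipocytes 1955 and 2823.

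Of the 18227 genes, 59.2% passed the test (limma on log2 normalized counts, Benjamini-Hochberg adjusted p under 0.05). With FL 5637 genes were higher, 30.9% of those tested, and 5162 were lower, 28.3%. Most changes were small. Among the genes that rose, 1442 changed by less than 1.2-fold and 1558 by 1.2 to 1.5-fold, while 286 rose 4 to 8-fold and 307 over 8-fold. Among the genes that fell, 2142 changed by less than 1.2-fold and 32 fell over 8-fold. At least 2-fold higher were 1576 genes (8.65%), and at least 2-fold lower were 801 (4.39%). Scaling the libraries to their total counts without Ppargc1a, in place of the authors' size factors, moved the median log2 fold change of all genes from -0.007 to -0.094 and the split to 4591 higher and 7138 lower. The direction of small changes therefore depended on the scaling. The shares over all tested genes, 30.9% higher and 28.3% lower, are the baseline for the counts of each gene list below.

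**Figure D1:**
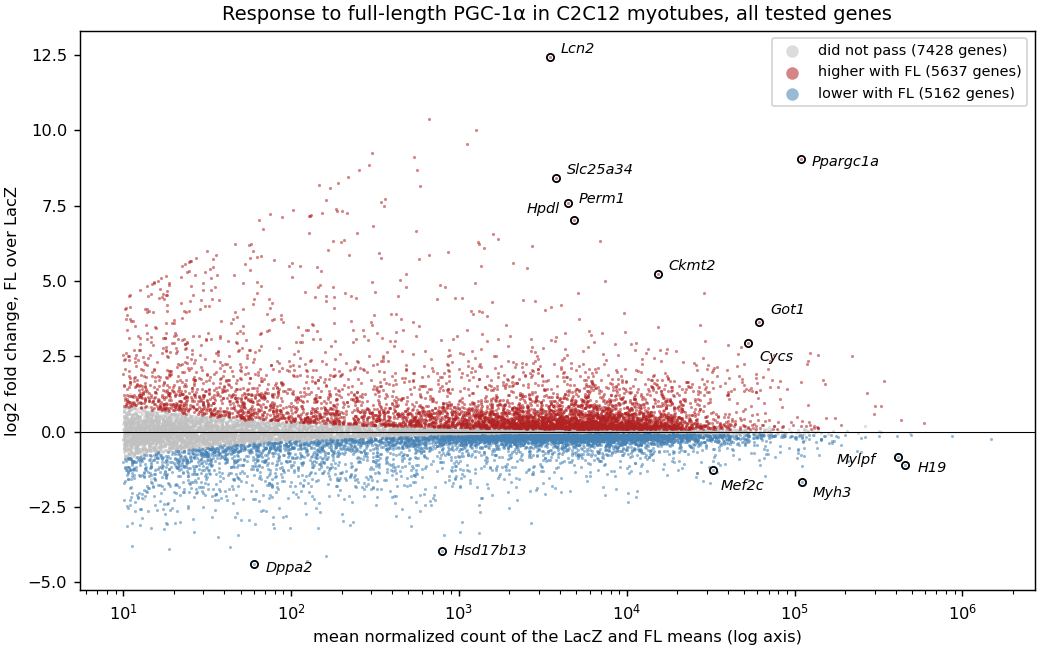
Mean normalized count of each tested gene (x axis, log scale, mean of the LacZ and FL means) against its log2 fold change with FL over LacZ (y axis), with genes coloured by the test. The 5637 higher genes reach larger changes than the 5162 lower genes, with Lcn2 and Ppargc1a far above 0 and Dppa2 and Hsd17b13 lowest among the genes labelled.

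The sizes of the changes varied with the level of the genes. In the lowest 20% by mean normalized count (10.0 to 46.8), 12.6% of genes were at least 2-fold higher and 8.56% at least 2-fold lower. In the highest 20% (7515 to 1483816) the shares were 6.86% and 1.21%, so falls of this size were more frequent among genes of low level. For 5251 genes (28.8%) the 95% confidence interval of the change lay within 1.2-fold in either direction, and 1869 of these still passed the test. By gene type, 34.3% of 14037 protein-coding genes rose and 31.4% fell, against 20.6% and 26.0% of 1895 long non-coding RNAs. Processed pseudogenes rose in 240 of 1211 cases and fell in 120, with 134 and 23 at least 2-fold. A pseudogene can take reads from its nearly identical parent gene, and how much of these counts does so was not tested. A bracket after a gene name gives its log2 fold change, FL over LacZ, ± its standard error (limma, n = 3 libraries per group, on log2 of the normalized count + 1). Amounts by which single genes rose or fell are on the same log2 scale, and every gene said to have done so passed the test.

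The share of all reads that went to whole pathways shifted with FL. Nuclear-encoded subunits of the respiratory chain and ATP synthase held 1.16%, 1.22% and 1.22% of reads in the LacZ libraries and 3.10%, 2.95% and 3.11% in the FL libraries. The share of the TCA cycle and fatty acid oxidation genes went from 0.428% ± 0.00260 (SD, n = 3) with LacZ to 1.52% ± 0.0549 (n = 3) with FL, 3.54-fold. Mitochondrial carriers went from 0.269% ± 0.00317 to 0.677% ± 0.0199, and the mitochondrial ribosome from 0.278% ± 0.00573 to 0.473% ± 0.0120. In the other direction, contractile proteins held 2.82%, 2.94% and 2.85% of reads with LacZ and 1.84%, 1.84% and 1.87% with FL. The share of genes that organise the sarcomere went from 1.06% ± 0.0323 to 0.700% ± 0.0122 and that of cytosolic ribosomal proteins from 2.43% ± 0.0758 to 2.20% ± 0.0572. In each of these 7 groups of genes the libraries of LacZ and FL did not overlap, and the two-sided exact permutation test gave p = 0.10, the smallest that 3 libraries against 3 allow. A share is relative to the total of its library. On the authors' size factors the summed normalized counts of cytosolic ribosomal proteins overlapped, at 2506066 to 2681171 with LacZ and 2475670 to 2579834 with FL. In whole cultures fewer cells of a type and less RNA per cell cannot be told apart.

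**Figure D2:**
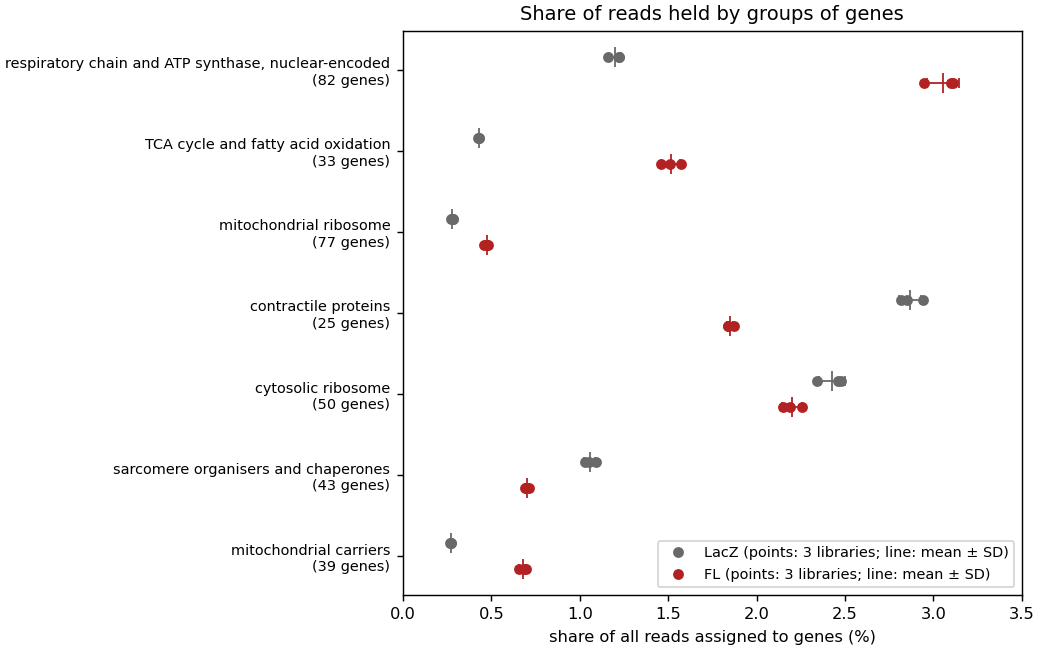
Share of all reads assigned to genes (x axis, %) held by 7 groups of genes (y axis, genes per group in brackets), with a point for each of 3 LacZ and 3 FL libraries and a line for the mean ± SD. The respiratory chain lies at 1.16% to 1.22% with LacZ and 2.95% to 3.11% with FL, and the contractile proteins lie at 2.82% to 2.94% and 1.84% to 1.87%, with no overlap between LacZ and FL in any group shown.

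The largest gains in reads came mostly from abundant metabolic genes. Beside Ppargc1a, the large rises in normalized count included those of Atp5b, the catalytic beta subunit of ATP synthase, and of the glycolytic enzyme Gapdh. Atp5b had normalized counts of 159247, 166239 and 165201 with LacZ and 549500, 496475 and 518591 with FL, and Gapdh had 144912, 165565 and 161890 with LacZ and 406560, 365434 and 384231 with FL. In both genes each FL library lay above every LacZ library. Other large rises were those of Tfrc, the transferrin receptor that brings iron into cells (2.56 ± 0.11), the muscle intermediate filament Des (0.86 ± 0.04), Cs, the citrate synthase (2.62 ± 0.04), the secreted phosphoprotein Spp1 (0.85 ± 0.04), the ADP/ATP carrier Slc25a5 (2.35 ± 0.04) and the mitochondrial chaperone Hspa9 (1.71 ± 0.04).

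The largest losses in normalized count were in the non-coding RNA H19, in muscle proteins and in the matrix protein fibronectin. H19, an imprinted transcript of developing muscle, had normalized counts of 554835, 665719 and 641587 with LacZ and 277533, 291069 and 290308 with FL. The fast regulatory light chain Mylpf had 524751, 548562 and 526494 with LacZ and 297052, 296279 and 293525 with FL. The FL libraries of both genes lay below all LacZ libraries. Fn1, fibronectin, had 1785785, 1534839 and 1484033 with LacZ and 1344887, 1416382 and 1336968 with FL, a log2 fold change of -0.23 ± 0.06 that passed the test (limma, adjusted p = 0.00229) but not without the filter on low values. Over the alternatives other than a minimum change, its adjusted p in the model across all genes ran from 5.1e-05 to 0.141, the last without that filter. Falls in Acta1, the skeletal muscle actin (-0.99 ± 0.04), Myh3, the embryonic myosin heavy chain (-1.68 ± 0.04), Myl1 (-0.69 ± 0.04), the fast myosin heavy chain Myh1 (-1.14 ± 0.04), cardiac troponin T Tnnt2 (-0.77 ± 0.04), the IGF-binding protein Igfbp5 (-0.65 ± 0.04) and the elongation factor Eef1a1 (-0.13 ± 0.04) followed. Reads of the myosin heavy chain genes can be divided between near-identical copies, which limits their single values.

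Promoters were read for motifs because the coactivator acts through DNA-binding partners. RefSeq promoters (GRCm38.p6, 250 bases before to 50 after the start) were matched to 9568 of the tested genes, and motifs were searched on both strands. The ERR motif TCAAGGTCA was in 5 of 319 promoters (1.57%) of genes over 4-fold higher, in 4 of 505 (0.792%) of genes 2 to 4-fold higher, and in 25 of all 9568 (0.261%). It was in 2 of 416 promoters (0.481%) of genes at least 2-fold lower. With any base at the second position (TNAAGGTCA, which contains the ERR motif and was added after these shares were seen), the shares were 1.88%, 1.78% and 0.805%, and 1.68% of the genes at least 2-fold lower, so the looser motif was about as frequent in strong falls as in strong rises. These counts are small and are given as a description.

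The motifs of nuclear respiratory factor 1 (GCATGCGC), of ETS factors such as GA-binding protein (CCGGAAGT) and of YY1 (AAGATGGC) had another distribution. They were most frequent among genes that rose by less than 2-fold, in 6.94%, 11.4% and 5.60% of 2377 promoters, against 5.11%, 7.89% and 4.62% of all tested. Among genes at least 2-fold lower they were in 0.962%, 1.44% and 0.962%. In the promoters of 401 genes from the mitochondrial lists, they were in 8.98%, 12.7% and 9.98%. This set also takes in the lists of the peroxisome, of creatine and adenylate kinases, and of glutamate and aspartate enzymes. The TATA box (TATAAA) was in 19.7% of promoters of genes at least 2-fold lower, 14.4% of those over 4-fold higher and 8.09% of all, and the myogenic E-box (CAGCTG) in 24.8%, 16.9% and 15.7%. Of 17 contractile protein promoters, 9 had a TATA box. Base composition moved with these shares: the median GC content was 53.7% for genes at least 2-fold lower, 56.3% for genes over 4-fold higher and 61.7% for genes that rose by less than 2-fold, and its part in the motif shares was not tested. The motif of SP and KLF factors (GGGGCGGG) was in 35.4% of promoters of genes that rose by less than 2-fold, 12.7% of genes at least 2-fold lower and 30.0% of all. That of Jun and Fos (TGANTCA) was in 10.7% of genes over 4-fold higher, 10.3% of genes at least 2-fold lower and 5.51% of all. Those of CREB (TGACGTCA), NF-Y (CCAAT), MEF2 (TAAAAATA) and interferon regulatory factors (TTTCNNTTT) were in 1.88%, 36.4%, 1.25% and 8.15% of genes over 4-fold higher, against 3.11%, 38.9%, 1.23% and 7.72% of all.

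**Figure D3:**
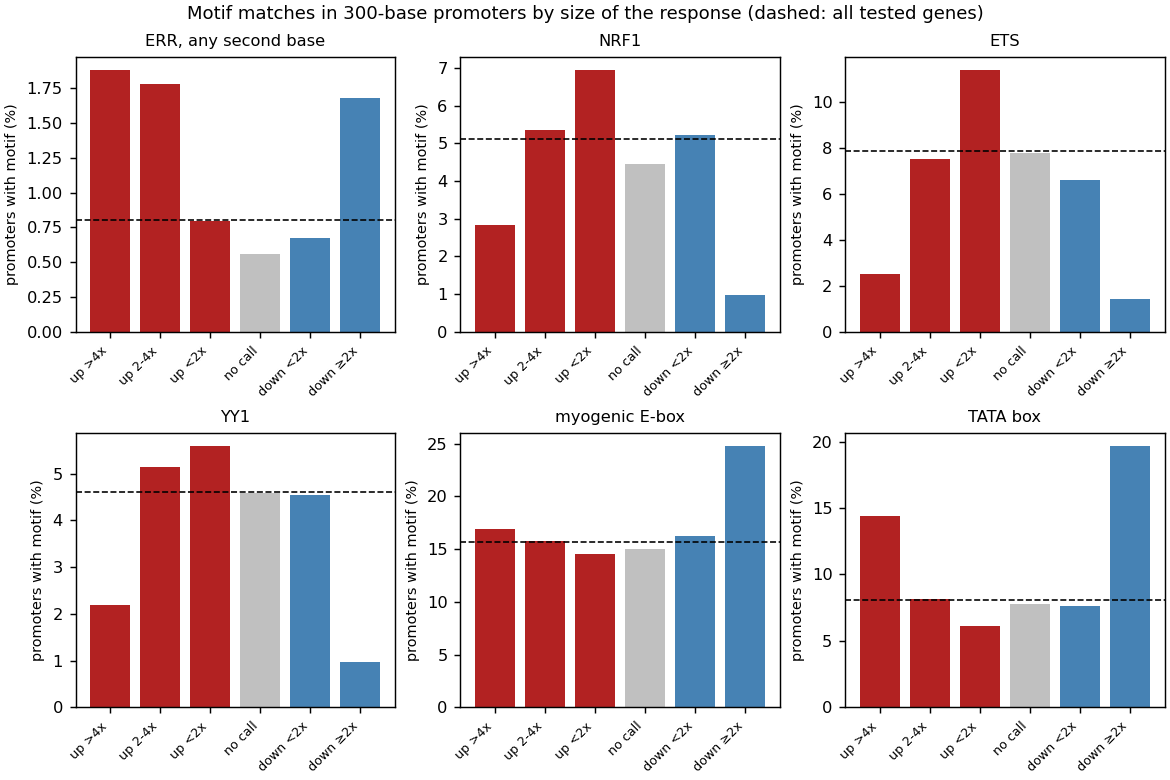
Share of 300-base promoters that hold each of 6 motifs (y axis, %, separate scale per motif) for genes grouped by the test and the size of their change with FL (x axis), with the share over all tested genes dashed. The ETS motif peaks at 11.4% among genes that rose by less than 2-fold, and the TATA box and the E-box are highest among genes at least 2-fold lower, at 19.7% and 24.8%.

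Few promoters of the mitochondrial lists held the ERR motif TCAAGGTCA, 4 of 401 (0.998%, against 0.261% of all tested). The promoters of the 3 genes of the mitochondrial lists with the ERR motif and the largest rises are shown, each 5′ to 3′ on the strand of its gene, with the match in capitals. Atp5g3 encodes a subunit of the ATP synthase ring (1.78 ± 0.04), Sdhd the small membrane anchor of complex II (1.77 ± 0.04) and Timm8b an intermembrane-space import chaperone (1.16 ± 0.04). Sdhd and Timm8b are transcribed away from each other, their windows overlap, and the capitals in both mark the same 9 bases, chromosome 9, 50603805 to 50603813, read from opposite strands. These bases lie after the start of Sdhd and before that of Timm8b. The Atp5g3 window also holds the NF-Y motif, and those of Sdhd and Timm8b the motif of SP and KLF factors.
Atp5g3, chr2:73911277-73911576, minus strand: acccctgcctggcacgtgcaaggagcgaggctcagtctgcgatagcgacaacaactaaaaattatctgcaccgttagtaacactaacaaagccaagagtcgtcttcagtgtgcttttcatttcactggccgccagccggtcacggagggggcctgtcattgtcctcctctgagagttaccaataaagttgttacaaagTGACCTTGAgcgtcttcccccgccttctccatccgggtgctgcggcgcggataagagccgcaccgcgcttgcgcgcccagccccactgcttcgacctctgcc
Sdhd, chr9:50603800-50604099, minus strand: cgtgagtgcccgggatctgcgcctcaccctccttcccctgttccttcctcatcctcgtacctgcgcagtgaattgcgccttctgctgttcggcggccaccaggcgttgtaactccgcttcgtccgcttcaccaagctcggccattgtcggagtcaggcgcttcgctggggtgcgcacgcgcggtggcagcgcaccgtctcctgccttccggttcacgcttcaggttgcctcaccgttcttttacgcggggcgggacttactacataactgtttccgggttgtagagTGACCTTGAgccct
Timm8b, chr9:50603651-50603950, plus strand: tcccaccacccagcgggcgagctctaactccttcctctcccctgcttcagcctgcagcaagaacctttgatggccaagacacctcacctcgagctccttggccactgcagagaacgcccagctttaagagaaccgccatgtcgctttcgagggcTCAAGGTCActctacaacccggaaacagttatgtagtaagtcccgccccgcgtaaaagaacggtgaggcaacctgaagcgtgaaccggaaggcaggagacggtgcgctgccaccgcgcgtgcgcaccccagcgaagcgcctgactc

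For the other partners of PGC-1α, the promoter with the largest rise among the mitochondrial lists is shown in the same way. Cycs, cytochrome c (2.94 ± 0.04), holds the nuclear respiratory factor 1 motif in capitals, and also those of CREB and NF-Y. In Kyat1, a kynurenine aminotransferase (2.18 ± 0.05), the capitals mark the ETS motif, and the NF-Y motif is present too. In Cox10, which makes the heme of complex IV (1.88 ± 0.04), the capitals mark the YY1 motif, which lies after the start. The Cox10 window also holds the TATA box and the motifs of ETS factors and of interferon regulatory factors.
Cycs, chr6:50566520-50566819, minus strand: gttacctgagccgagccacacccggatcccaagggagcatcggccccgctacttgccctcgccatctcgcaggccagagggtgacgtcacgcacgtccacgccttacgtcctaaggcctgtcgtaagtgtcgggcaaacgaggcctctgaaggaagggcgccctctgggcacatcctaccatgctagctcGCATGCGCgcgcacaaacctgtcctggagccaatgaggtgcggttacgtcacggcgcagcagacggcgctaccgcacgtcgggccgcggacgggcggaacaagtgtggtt
Kyat1, chr2:30205798-30206097, minus strand: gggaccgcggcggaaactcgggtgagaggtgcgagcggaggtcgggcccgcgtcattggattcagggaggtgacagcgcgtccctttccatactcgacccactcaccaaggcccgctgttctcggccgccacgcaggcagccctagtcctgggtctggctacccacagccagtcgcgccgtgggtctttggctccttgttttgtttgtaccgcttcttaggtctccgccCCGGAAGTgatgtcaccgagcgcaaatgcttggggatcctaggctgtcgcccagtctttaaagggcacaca
Cox10, chr11:64079423-64079722, minus strand: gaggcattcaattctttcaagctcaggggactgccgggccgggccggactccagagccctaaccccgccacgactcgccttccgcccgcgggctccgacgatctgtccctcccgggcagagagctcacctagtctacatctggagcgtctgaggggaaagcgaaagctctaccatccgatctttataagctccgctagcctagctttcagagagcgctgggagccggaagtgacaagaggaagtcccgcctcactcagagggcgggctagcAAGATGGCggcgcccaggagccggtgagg

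The pathways of mitochondrial energy production rose almost as a whole. Of 81 tested subunits of the respiratory chain and ATP synthase 80 rose and 0 fell, with a median log2 fold change of 1.33, and of 33 genes of the TCA cycle and fatty acid oxidation 32 rose and 0 fell (median 1.36). In the mitochondrial ribosome 73 of 76 tested genes rose and 1 fell (median 0.71), the fall being lost without LacZ replicate 3 or FL replicate 2, and 69 rose and 3 fell on total-count scaling. Idh3a, the catalytic subunit of the NAD-dependent isocitrate dehydrogenase, had normalized counts of 11910, 11819 and 12095 with LacZ and 89993, 78782 and 84054 with FL, and Cycs had 11525, 12272 and 12648 with LacZ and 98026, 90859 and 91566 with FL. The FL counts were several-fold above the LacZ counts in every library. The muscle form of a complex IV subunit, Cox7a1 (3.95 ± 0.05), the ATP synthase ring subunit Atp5g1 (2.59 ± 0.04), and the muscle fatty acid-binding protein Fabp3 (3.01 ± 0.04) led their groups.

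The factors that build these complexes rose too. Among respiratory complex assembly factors 43 of 48 tested genes rose and 0 fell (median 0.63), led by Sco2, which delivers copper to complex IV (2.62 ± 0.08), and Fmc1, an ATP synthase assembly factor (2.05 ± 0.08). Of the genes that shape cristae, the folds of the inner membrane, 24 of 26 tested genes rose and 0 fell. Chchd10, an intermembrane-space protein bound to cristae junctions, had normalized counts of 423, 467 and 465 with LacZ and 14380, 13615 and 15427 with FL (5.00 ± 0.05). Letm1, an ion exchanger of the inner membrane, and its relative Letmd1 rose by 1.87 and 1.99 on the log2 scale.

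Protein import and translation inside mitochondria followed at smaller sizes. In mitochondrial protein import 26 of 34 tested genes rose and 2 fell (median 0.58), with the small chaperones Timm8a1 (2.01 ± 0.07) and Timm10 (1.86 ± 0.04) beside Hspa9, and with falls in Pmpca, a subunit of the peptidase that removes import signals (-0.26 ± 0.04), and Tomm34 (-0.22 ± 0.05). Among mitochondrial tRNA synthetases and translation factors 24 of 30 tested genes rose and 1 fell (median 0.34), and 22 rose and 3 fell on total-count scaling. The elongation factors Tufm (1.83 ± 0.04) and Gfm1 (1.73 ± 0.04) rose with Qrsl1, which helps to load glutamine tRNA (1.59 ± 0.05). The asparagine tRNA synthetase Nars2 had normalized counts of 5063, 5423 and 5520 with LacZ and 3628, 3257 and 3300 with FL and fell by 0.65 on the log2 scale.

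Coenzyme Q, the lipid electron carrier between complexes I or II and III, had 12 of 14 tested synthesis genes higher and 0 lower. Hpdl, an enzyme that makes a precursor of the coenzyme Q ring, stood apart. Its normalized counts were 70.2, 74.4 and 75.3 with LacZ and 9684, 8899 and 10118 with FL, a log2 fold change of 7.01 ± 0.06 (limma, adjusted p = 1.7e-35). The 3 LacZ libraries agreed closely at a low level and the FL libraries lay far above them. Pdss1, which helps to make the side chain (3.08 ± 0.05), and the methyltransferase Coq5 (2.25 ± 0.04) were next.

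Heme and iron-sulfur clusters are the prosthetic groups of the respiratory complexes. In heme synthesis 10 of 15 tested genes rose and 2 fell, or 1 without LacZ replicate 2. Alas1, its rate-limiting enzyme outside red cells, had normalized counts of 4631, 4686 and 4599 with LacZ and 19498, 18155 and 18558 with FL (2.01 ± 0.04). The inner-membrane transporter Abcb10 (1.29 ± 0.04) and the heme-degrading Hmox2 (1.51 ± 0.04) rose, and Uros, a cytosolic step of synthesis, fell (-0.26 ± 0.05). In iron-sulfur cluster assembly 19 of 22 tested genes rose and 1 fell, with Fdx1, a mitochondrial ferredoxin (3.03 ± 0.06), Ciapin1 of the cytosolic pathway (1.77 ± 0.04) and Lyrm4 (1.53 ± 0.06) highest. The one that fell was Ireb2, an iron-sensing RNA-binding protein (-0.13 ± 0.04).

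Most carriers of the inner membrane rose, but the largest change was in a carrier that was almost silent in the control. Among mitochondrial carriers 27 of 39 tested genes rose and 5 fell. Slc25a34 (ENSMUSG00000040740, chromosome 4, 141618823 to 141623821 in mm10) had normalized counts of 20.3, 18.6 and 24.5 with LacZ and 7553, 7192 and 7795 with FL, a log2 fold change of 8.42 ± 0.09 (limma, adjusted p = 1.1e-33). It was nearly silent in each LacZ library and well expressed in each FL library. Slc25a35 (2.82 ± 0.05) rose as well. Among the falls, Ucp3, the uncoupling protein of muscle mitochondria, had 97.0, 131 and 106 with LacZ and 75.2, 77.0 and 86.9 with FL (-0.47 ± 0.15), and without LacZ replicate 2 it did not pass (-0.35, limma, adjusted p = 0.0663, against 0.00159 at the lowest over the alternatives other than a minimum change). The other falls named were smaller, those of the ATP-magnesium carrier Slc25a25 (-0.16 ± 0.05), of Slc25a16 (-0.16 ± 0.04) and of the peroxisomal carrier Slc25a17 (-0.15 ± 0.04).

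Enzymes of the malate-aspartate shuttle, which moves the electrons of cytosolic NADH into mitochondria, rose. In the list of the malate-aspartate shuttle with glutamate and aspartate enzymes 16 of 23 tested genes rose and 4 fell. Got1, the cytosolic aspartate aminotransferase, had normalized counts of 9238, 9426 and 8700 with LacZ and 123043, 107727 and 112345 with FL, a log2 fold change of 3.65 ± 0.04 (limma, adjusted p = 3.3e-29). Its mitochondrial partner Got2 (2.23 ± 0.04) and the cytosolic malate dehydrogenase Mdh1 (2.25 ± 0.04) rose as well. Gpd1, the cytosolic enzyme of the glycerol-3-phosphate shuttle, had 788, 830 and 736 with LacZ and 210, 204 and 276 with FL and fell by 1.78 on the log2 scale, while its mitochondrial partner Gpd2, named after its values were seen, had 3719, 3642 and 3709 with LacZ and 4774, 4548 and 4576 with FL (0.33 ± 0.04). Smaller falls were those of glutamine synthetase Glul (-0.32 ± 0.04) and of Ass1, which joins citrulline and aspartate (-0.15 ± 0.04).

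Creatine kinases carry phosphate from ATP to creatine. Their list with the adenylate kinases had 10 of 18 genes higher and 6 lower. Both mitochondrial creatine kinases were among the strongest rises. The muscle form Ckmt2 had normalized counts of 737, 835 and 791 with LacZ and 31039, 28213 and 29971 with FL (5.24 ± 0.05), and the ubiquitous form Ckmt1 had 2.77, 3.91 and 2.72 with LacZ and 1262, 1040 and 1212 with FL (8.15 ± 0.16). Adssl1 of the purine nucleotide cycle rose (1.31 ± 0.04) while Ampd1, the muscle AMP deaminase of the same cycle, had 1053, 1105 and 1047 with LacZ and 201, 195 and 192 with FL and fell by 2.44. Gamt, the last enzyme of creatine synthesis, fell too (-0.84 ± 0.05).

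The pyruvate dehydrogenase complex, which feeds pyruvate into the TCA cycle, had 13 of 15 genes higher and 1 lower. The core enzyme Dlat (2.22 ± 0.04) and the lipoyltransferase Lipt1 (2.63 ± 0.05) rose together with Pdk4, the kinase that inactivates the complex, whose normalized counts were 4413, 4492 and 4577 with LacZ and 31947, 28794 and 29404 with FL (2.74 ± 0.04). The activating phosphatase Pdp1 fell (-0.15 ± 0.04). Catalytic and inhibitory members rose side by side.

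In the peroxisome list 25 of 39 tested genes rose and 5 fell, and 21 rose and 9 fell when libraries were scaled to their total counts. Phyh, which starts the alpha-oxidation of branched fatty acids (2.90 ± 0.04), and carnitine acetyltransferase Crat (1.64 ± 0.04) rose. Catalase Cat (-0.28 ± 0.04) and the biogenesis factor Pex19 (-0.15 ± 0.04) fell.

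Genes of mitochondrial fusion, fission and mitophagy were mostly higher: 18 of 26 tested genes rose and 3 fell. They were led by the fission protein Mtfp1 (2.24 ± 0.05), the fusion protein Mfn1 (1.83 ± 0.04) and the transport adaptor Trak2 (1.66 ± 0.04). Gdap1 fell (-1.28 ± 0.27). The calcium uniporter list was divided, with 5 of 11 genes higher and 4 lower. The uniporter pore Mcu had normalized counts of 8705, 8378 and 8652 with LacZ and 7201, 7150 and 6688 with FL (-0.29 ± 0.04). It fell together with the gatekeeper Micu2 (-0.15 ± 0.04) and the sodium-calcium exchanger Slc8b1 (-0.16 ± 0.04), while the regulator Mcur1 (1.73 ± 0.04) and the outer-membrane channels Vdac1 (1.47 ± 0.04) and Vdac2 (1.07 ± 0.04) rose.

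**Figure D4:**
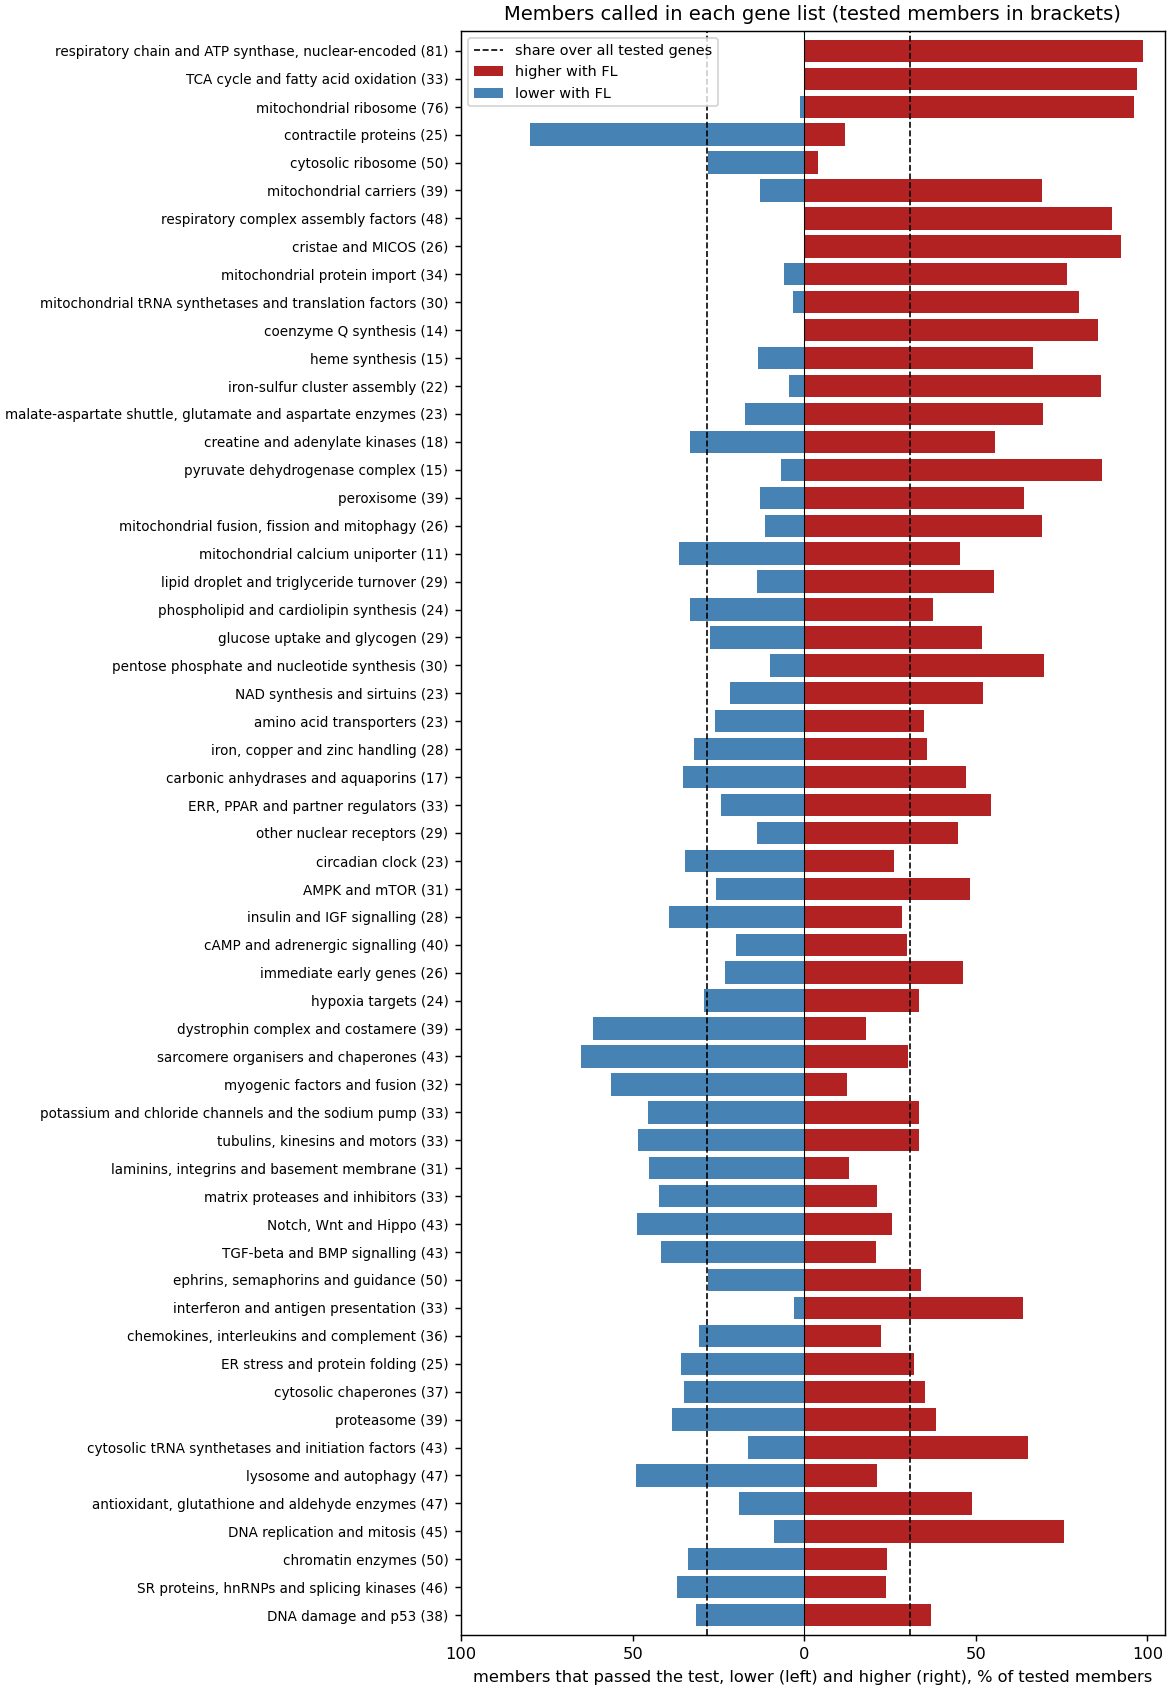
Share of tested members (x axis, %) that passed the test higher (right) and lower (left) with FL in each of 57 gene lists (y axis, tested members in brackets), with dashed lines at 30.9% and 28.3%, the shares over all tested genes. The respiratory chain lies furthest right with 80 of 81 members higher, and the contractile proteins lie furthest left with 20 of 25 lower.

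Plin5, Cidec and Cidea, genes of lipid storage, rose from near silence. In the lipid droplet list 16 of 29 tested genes rose and 4 fell (median 0.33). Plin5, which ties droplets to mitochondria in oxidative tissues, had 1 read over the LacZ libraries and normalized counts of 372, 292 and 354 with FL, a ratio of 1077 (95% exact counting interval 193 to 42593). Cidec, a droplet-fusion protein, had 1 read with LacZ and normalized counts of 392, 327 and 424 with FL (ratio 1209, interval 217 to 47806). Cidea, its relative in brown fat, had 3.70, 0 and 4.53 with LacZ and 2436, 2055 and 2222 with FL (9.56 ± 0.76). These 3 genes were barely read in any control library, while Adipoq and Plin1, markers of fat cells, had at most 5 reads over the 3 libraries of either group. All 9 adipocyte markers summed to normalized counts of 590 to 646 with LacZ and 1255 to 1459 with FL, and most of this was Pparg (602, 583 and 642 with LacZ and 1052, 923 and 1021 with FL). Among the falls, Hsd17b13, a droplet-bound dehydrogenase, had normalized counts of 1599, 1476 and 1433 with LacZ and 96.9, 101 and 84.6 with FL and fell by 3.98, and Gpam, the first step of triglyceride synthesis, fell by 0.34.

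For phospholipids 9 of 24 tested genes rose (37.5%, against 30.9% of all) and 8 fell (33.3%, against 28.3%). Total-count scaling gave 9 rises and 10 falls. Pcyt2, the rate-limiting step of phosphatidylethanolamine synthesis, had normalized counts of 3243, 3506 and 3170 with LacZ and 12406, 11842 and 12449 with FL (1.89 ± 0.04) and stood above the corresponding choline enzyme Pcyt1a (0.72 ± 0.04). Cds2, which makes the precursor of phosphatidylinositol and cardiolipin (-0.65 ± 0.04), and Lpcat3 (-0.50 ± 0.04) fell.

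Genes of glucose uptake and glycogen changed in both directions, with more rises than falls. In the list of glucose uptake and glycogen 15 of 29 tested genes rose and 8 fell. Slc2a4, the insulin-responsive transporter GLUT4, had normalized counts of 289, 251 and 258 with LacZ and 5814, 4977 and 5402 with FL (4.34 ± 0.06). The LacZ counts were low in all 3 libraries and the FL counts high in all 3. Hexokinase Hk1 (2.14 ± 0.04) and muscle glycogen phosphorylase Pygm (1.49 ± 0.04) rose. Phkg1, the catalytic subunit of the kinase that activates phosphorylase, fell by 1.97, and Ppp1r3c, which targets a phosphatase to glycogen, by 0.66. Ldhb, the lactate dehydrogenase subunit of oxidative tissues, had 2192, 2361 and 2230 with LacZ and 58992, 51078 and 56259 with FL (4.61 ± 0.05), among the largest changes of any well-expressed gene.

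Pentose phosphate and nucleotide synthesis genes rose in most cases: 21 of 30 tested genes rose and 3 fell, and 16 rose and 6 fell on total-count scaling. With the authors' scaling the fallen count was 1 without LacZ replicate 2 or FL replicate 2. The ribonucleotide reductase subunit Rrm2 (1.29 ± 0.04), the purine enzyme Adsl (1.05 ± 0.04) and Pgls (1.01 ± 0.04) were highest and Impdh2, of guanine nucleotide synthesis, fell (-0.16 ± 0.04). For NAD 12 of 23 tested genes rose and 5 fell, with 3 falls without LacZ replicate 2, LacZ replicate 3 or FL replicate 2. Sirt5 (2.27 ± 0.05) and Sirt3 (1.93 ± 0.05), deacylases of the mitochondrial matrix, rose, as did Qprt, which makes NAD precursors from tryptophan breakdown (3.48 ± 0.17). The nuclear deacetylase Sirt1, known to deacetylate PGC-1α, fell (-0.27 ± 0.04), and so did Nmrk2, the muscle nicotinamide riboside kinase (-1.11 ± 0.07), and the nuclear Parp2 (-0.20 ± 0.04).

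Transport at the cell surface changed in a few genes by large factors. Amino acid transporters rose in 8 (34.8%, against 30.9% of all) and fell in 6 (26.1%, against 28.3%) of 23 cases. Total-count scaling gave 6 rises and 9 falls. The glutamine transporters Slc38a3, with 0.924, 0.979 and 2.72 with LacZ and 49.0, 45.8 and 50.3 with FL, and Slc1a5, with 1169, 984 and 1014 with LacZ and 4611, 4294 and 4252 with FL, rose most (4.35 ± 0.37 and 2.06 ± 0.06). Slc38a1 rose (1.04 ± 0.04), and Slc7a7 (-0.57 ± 0.09) and the lysosomal arginine sensor Slc38a9 (-0.28 ± 0.04) fell.

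Iron, copper and zinc genes gave 10 rises (35.7%, against 30.9% of all tested genes) and 9 falls (32.1%, against 28.3%) among 28 genes. Total-count scaling gave 8 rises and 13 falls. Lcn2, a secreted protein that binds iron-loaded siderophores, had 1 read over the 3 LacZ libraries and normalized counts of 7470, 6247 and 7250 with FL, a ratio of 22231 (95% exact counting interval 3990 to 878113). Tfrc had 34486, 42003 and 43250 with LacZ and 254704, 217447 and 231465 with FL. The copper importer Slc31a1 rose (1.10 ± 0.04) and its relative Slc31a2 fell (-0.52 ± 0.04). Among carbonic anhydrases and aquaporins 8 of 17 tested genes rose and 6 fell. The glycerol and water channels Aqp3 (0.924, 1.96 and 0.907 with LacZ and 404, 340 and 364 with FL) and Aqp9 (2.77, 0 and 0.907 with LacZ and 84.4, 52.3 and 76.6 with FL) and the membrane-bound Car14 (2.77, 0 and 4.53 with LacZ and 112, 106 and 115 with FL) were nearly absent with LacZ. The cytosolic Car1 (-1.50 ± 0.16) and the muscle enzyme Car3 (-1.13 ± 0.05) fell.

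The coactivator's own partners changed unequally. In the list of ERRs, PPARs and partner regulators 18 of 33 tested genes rose and 8 fell, and 14 rose and 12 fell on total-count scaling. The fallen count was 5 without FL replicate 3. Perm1, a muscle regulator downstream of PGC-1α and the ERRs, had normalized counts of 43.4, 48.9 and 43.5 with LacZ and 9055, 8317 and 9159 with FL, a log2 fold change of 7.58 ± 0.07 (limma, adjusted p = 2.1e-35). Esrra, the ERR most tied to PGC-1α, had 2655, 3284 and 3058 with LacZ and 19176, 18704 and 20256 with FL (2.70 ± 0.07), and Ppara, which drives fatty acid oxidation, 52.7, 40.1 and 38.1 with LacZ and 570, 514 and 573 with FL (3.64 ± 0.12). All FL libraries stood well above all LacZ libraries for these 3 genes. Esrrg, the ERR of oxidative muscle, had 249, 190 and 230 with LacZ and 78.7, 94.4 and 82.3 with FL and fell by 1.37, and the related coactivator Ppargc1b fell by 0.64.

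**Figure D5:**
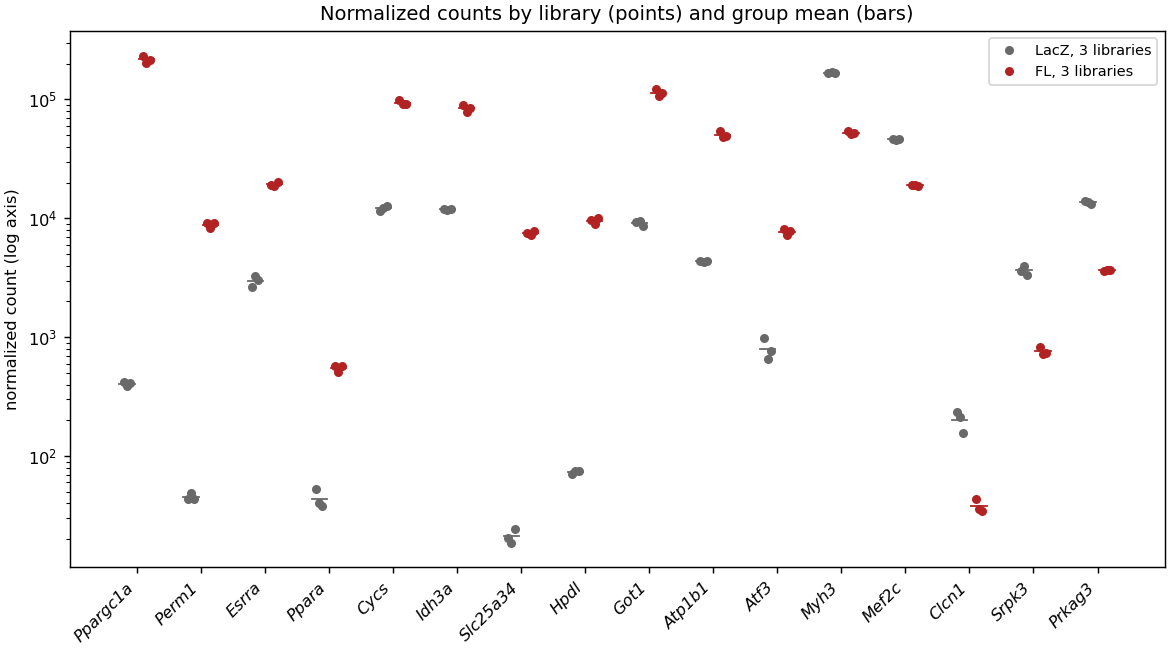
Normalized count (y axis, log scale) of 16 genes (x axis) in 3 LacZ libraries (grey) and 3 FL libraries (red), with bars at the group means. From Ppargc1a to Atf3 all FL points lie above the LacZ points, and from Myh3 to Prkag3 all lie below them.

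Among other nuclear receptors 13 of 29 tested genes rose and 4 fell, and 9 rose and 8 fell on total-count scaling. Nr0b2, the repressor SHP, which lacks a DNA-binding domain, had 0 reads in all 3 LacZ libraries and normalized counts of 1417, 1184 and 1387 with FL. It was at least 1409-fold higher, taking 3 reads over the LacZ group as the floor. The retinoic acid receptor Rarb (1.62 ± 0.17) and the orphan receptor Rorb (1.26 ± 0.09) rose, and Nr4a1 (-0.73 ± 0.05), Nr5a1 (-1.22 ± 0.36) and Esr1 (-0.22 ± 0.05) fell. In the circadian clock list 6 of 23 tested genes rose (26.1%, against 30.9% of all) and 8 fell (34.8%, against 28.3%). Total-count scaling gave 4 rises and 10 falls. The repressor Ciart (1.73 ± 0.07) changed more than the other clock genes named, such as Nr1d1 (0.41 ± 0.05), Nr1d2 (0.41 ± 0.04), Bhlhe41 (-0.36 ± 0.04) and Per3 (-0.33 ± 0.05).

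Energy and nutrient signalling also moved in parts. In the AMPK and mTOR list 15 of 31 tested genes rose and 8 fell, and 12 rose and 14 fell on total-count scaling. AMPK subunits of muscle moved in opposite directions. The catalytic subunit Prkaa2 rose (1.05 ± 0.04), while the regulatory subunit Prkag3, typical of fast fibres, had normalized counts of 13927, 13809 and 13164 with LacZ and 3584, 3647 and 3702 with FL and fell by 1.90. The mTOR inhibitor Ddit4 (1.25 ± 0.05) and the translation repressor Eif4ebp1 (0.92 ± 0.04) rose, and the S6 kinase Rps6kb1 fell (-0.63 ± 0.04).

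In insulin and IGF signalling 8 of 28 tested genes rose and 11 fell, and 4 rose and 15 fell on total-count scaling. The kinase Sgk2 had 0 reads in all LacZ libraries and normalized counts of 671, 539 and 605 with FL, at least 641-fold higher against the same floor. Akt1 (0.42 ± 0.04) and Igfbp3 (0.40 ± 0.08) rose modestly. Grb10, an imprinted adaptor that dampens insulin receptor signalling, had 128, 112 and 142 with LacZ and 22.8, 35.8 and 25.2 with FL and fell by 2.17, and Foxo6 fell by 0.82.

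In cAMP and adrenergic signalling 12 of 40 tested genes rose and 8 fell, and 9 rose and 14 fell on total-count scaling. The alpha-adrenergic receptor Adra1d (1.83 ± 0.12) and the phosphodiesterase Pde4a (1.82 ± 0.05) rose, and Pde7a (-0.57 ± 0.04) fell. Immediate early genes gave 12 rises and 6 falls among 26, and 10 rose and 8 fell on total-count scaling. Atf3, a stress-induced transcription factor, had 978, 656 and 764 with LacZ and 8157, 7224 and 7847 with FL (3.29 ± 0.17), and Fos rose by 1.84 and Btg2 by 0.80, while Klf2 fell by 0.69. Among hypoxia targets 8 of 24 tested genes rose (33.3%, against 30.9% of all) and 7 fell (29.2%, against 28.3%). Total-count scaling gave 8 rises and 9 falls. Epas1, the oxygen-regulated factor HIF-2α, had 48.1, 55.8 and 48.1 with LacZ and 1545, 1375 and 1571 with FL (4.86 ± 0.10). The glycolysis regulator Pfkfb4 (1.55 ± 0.05) rose, and the oxygen sensor Egln3 (-0.74 ± 0.10) and the ubiquitin ligase component Vhl (-0.25 ± 0.04) fell.

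The contractile apparatus fell as a group. Of 25 contractile protein genes 20 fell and 3 rose (median -0.69). The embryonic heavy chain Myh3 had normalized counts of 167903, 171787 and 165767 with LacZ and 53834, 51599 and 52530 with FL, and the fastest adult form Myh4 had 41579, 38029 and 34464 with LacZ and 14380, 12572 and 13308 with FL. FL counts lay below LacZ counts in all libraries. The genes that rose were Tpm3, the slow-fibre tropomyosin gene, with 34057, 34374 and 34723 with LacZ and 114394, 108412 and 114374 with FL (1.71 ± 0.04), and the light chains Myl6b (0.92 ± 0.07) and Myl2 (0.29 ± 0.05), both found in slow fibres. Other slow-fibre forms differed in size of change. The slow heavy chain Myh7 had normalized counts of 5176 to 5639 with LacZ and 2394 to 2437 with FL. The slow troponin T Tnnt1 had 76826 to 80816 and 51679 to 53400, and both fell. Slow troponin I Tnni1 had 163865 to 179525 with LacZ and 152358 to 161543 with FL. Counts of the slow and cardiac troponin C Tnnc1 overlapped, at 239684 to 247884 and 227648 to 241612. Myh7, Tnnt1, Tnni1 and Tnnc1 were named after their values were seen. Of the 23 myotube markers 19 fell and 1, Des, rose.

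Among sarcomere organisers and chaperones 13 of 43 tested genes rose and 28 fell (median -0.59). Mybpc3, the heart form of myosin-binding protein C, had normalized counts of 30.5, 37.2 and 30.8 with LacZ and 3221, 2900 and 3380 with FL, a log2 fold change of 6.55 ± 0.09 (limma, adjusted p = 7.8e-31). Its LacZ counts were low in every library. The small heat shock protein Hspb7 (0.95 ± 0.04) rose. The Z-disc proteins Myoz1, typical of fast fibres (681, 750 and 640 with LacZ and 141, 152 and 173 with FL), and Myoz3 (71.2, 70.5 and 58.9 with LacZ and 9.12, 16.5 and 19.4 with FL) fell by 2.15 and 2.14.

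The dystrophin complex and costamere, which tie the sarcomere to the membrane, had 24 of 39 genes lower and 7 higher. The sarcoglycan Sgca (-1.10 ± 0.04) fell, and Lims2 (1.23 ± 0.06), Des and Dtnb (0.54 ± 0.07) rose. Of the myogenic factors and fusion genes 18 of 32 fell and 4 rose. Mef2c, a transcription factor of differentiated muscle and a known partner of PGC-1α, had normalized counts of 46900, 45239 and 46766 with LacZ and 19231, 19012 and 18717 with FL (-1.29 ± 0.04). The receptor Stab2 fell by 1.45. The 4 that rose were the adhesion protein Jam2 (1.31 ± 0.04), the myoblast factor Myf5 (0.80 ± 0.05) and the differentiation inhibitors Id3 (0.32 ± 0.05) and Hes1 (0.26 ± 0.04). Beside them, of 8 tested myoblast markers 4 rose and 0 fell, and 4 rose and 1 fell on total-count scaling, with summed normalized counts of 48356 to 51205 with LacZ and 55789 to 60981 with FL, and the part of undifferentiated cells in these values was not tested.

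Genes of ion transport across the muscle membrane fell more often than all tested genes and rose about as often. In the list of potassium and chloride channels and the sodium pump 11 of 33 tested genes rose (33.3%, against 30.9% of all). In the same list 15 fell (45.5%, against 28.3%). The sodium pump beta subunit Atp1b1 had normalized counts of 4382, 4318 and 4383 with LacZ and 54045, 48041 and 49672 with FL (3.53 ± 0.04). Kcnj11, the pore of the ATP-sensitive potassium channel, rose (2.24 ± 0.10) while Abcc9, its regulatory subunit, fell (-1.69 ± 0.18). Kcnn1, a calcium-activated potassium channel, rose (2.02 ± 0.05). Clcn1, the chloride channel that stabilises the resting potential of muscle, had 237, 214 and 157 with LacZ and 43.3, 35.8 and 34.3 with FL and fell by 2.38. Among tubulins, kinesins and motors 11 of 33 tested genes rose (33.3%, against 30.9% of all) and 16 fell (48.5%, against 28.3%). The kinesins Kif5a (1.04 ± 0.10), Kif1a (0.85 ± 0.06) and Kif21b (0.76 ± 0.04) rose. The microtubule-binding Mapt (-1.18 ± 0.05) and Tubb2b (-0.67 ± 0.04) fell.

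Outside the fibre, adhesion and matrix genes were more often lower. Among laminins, integrins and basement membrane genes 4 of 31 tested genes rose and 14 fell, and 1 rose and 17 fell on total-count scaling. The integrin subunits Itga9 (391, 363 and 366 with LacZ and 88.9, 113 and 120 with FL) and Itgb6 (3018, 2843 and 3034 with LacZ and 1369, 1347 and 1275 with FL) fell by 1.80 and 1.16, and the laminin chain Lamb1 rose by 0.18. Among matrix proteases and their inhibitors 7 of 33 tested genes rose and 14 fell, and 6 rose and 20 fell on total-count scaling. The metalloproteinases Mmp24 (2.64 ± 0.20), Mmp13 (1.73 ± 0.22) and Mmp10 (1.98 ± 0.30) rose from low levels. The membrane-bound Mmp15 fell by 1.16 and the inhibitor Timp4 by 1.85.

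In developmental signalling (Notch, Wnt and Hippo) 11 of 43 tested genes rose (25.6%, against 30.9% of all) and 21 fell (48.8%, against 28.3%). The Wnt antagonist Sfrp2 (-0.91 ± 0.04) and Wnt6 (-0.70 ± 0.20) fell, and the receptors Fzd4 (1.16 ± 0.05) and Notch4 (1.03 ± 0.22) and the antagonist Sfrp4 (0.56 ± 0.09) rose. In TGF-beta and BMP signalling 9 of 43 tested genes rose and 18 fell, and 5 rose and 27 fell on total-count scaling. The stress hormone Gdf15 had 212, 198 and 232 with LacZ and 1028, 1097 and 1331 with FL (2.42 ± 0.09). Follistatin Fst, an inhibitor of activin and myostatin that favours muscle growth, had 14691, 15092 and 14757 with LacZ and 5874, 5627 and 5681 with FL (-1.37 ± 0.04), and the BMP inhibitor Nog fell by 1.39. Bmp6 (1.11 ± 0.20) and Ltbp3 (0.69 ± 0.04) rose. Among ephrins, semaphorins and other guidance genes 17 of 50 tested genes rose (34.0%, against 30.9% of all) and 14 fell (28.0%, against 28.3%). Total-count scaling gave 14 rises and 18 falls. Sema4a (2.07 ± 0.12), Sema6b (1.15 ± 0.15) and Sema4g (0.80 ± 0.13) were higher, and Sema4d (-1.40 ± 0.05) and Sema6c (-1.21 ± 0.05) lower.

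Genes of the interferon response and antigen presentation were mostly higher, and both groups had received an adenovirus. In this list 21 of 33 tested genes rose and 1 fell, and 18 rose and 5 fell on total-count scaling. The RNA-sensing pathway gene Oasl2 had normalized counts of 214, 259 and 220 with LacZ and 1506, 1433 and 1604 with FL (2.71 ± 0.08), and Psmb10, a subunit of the immunoproteasome, 864, 1006 and 967 with LacZ and 4805, 4914 and 5195 with FL (2.40 ± 0.05). The FL libraries lay above the LacZ libraries in both. Usp18, which dampens interferon signalling, rose (2.72 ± 0.20), and the antiviral Mx1, at 20.3, 24.5 and 15.4 with LacZ and 5.70, 4.58 and 0 with FL, fell (-2.63 ± 0.58). Among chemokines, interleukins and complement 8 of 36 tested genes rose (22.2%, against 30.9% of all) and 11 fell (30.6%, against 28.3%). There were 7 falls without LacZ replicate 3, and 4 rose and 12 fell on total-count scaling. The muscle cytokine Il15 (0.57 ± 0.07) and the chemokines Cx3cl1 (0.33 ± 0.04) and Cxcl16 (0.32 ± 0.10) rose, and the complement regulator Cd55, at 5070, 4922 and 5298 with LacZ and 1709, 1885 and 1665 with FL, and the chemokine Cxcl13 fell by 1.54 and 1.06.

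Stress and protein quality genes rose and fell at shares not far from those of all tested genes. In ER stress and protein folding 8 of 25 tested genes rose (32.0%, against 30.9% of all) and 9 fell (36.0%, against 28.3%). Total-count scaling gave 7 rises and 13 falls. Ddit3, the stress factor CHOP, had normalized counts of 2704, 2291 and 2231 with LacZ and 12901, 12166 and 12545 with FL (2.38 ± 0.06). The ER chaperone cofactor Dnajb9 (0.99 ± 0.04) and the secreted Manf (0.71 ± 0.04) rose, and Pdia6 (-0.30 ± 0.04) and Selenos (-0.44 ± 0.04) fell. Cytosolic chaperones gave 13 rises and 13 falls among 37 genes (35.1% each), and 10 rose and 20 fell on total-count scaling. The small heat shock proteins of muscle Hspb2 (-0.94 ± 0.05) and Hspb3 (-1.29 ± 0.06) fell most, and the rises of Ahsa1 (0.49 ± 0.04), Hspa14 (0.46 ± 0.04) and Hspa4 (0.42 ± 0.04) were small.

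In the proteasome 15 of 39 tested genes rose and 15 fell, 38.5% each against 30.9% and 28.3% of all. Total-count scaling gave 12 rises and 20 falls. Psma6 (0.87 ± 0.04), Psma5 (0.46 ± 0.04) and Psmb2 (0.45 ± 0.04) were highest, and Psmc3 (-0.31 ± 0.04) and Pomp (-0.27 ± 0.04) lowest. Lysosome and autophagy genes were more often lower: 10 of 47 tested genes rose and 23 fell, and 5 rose and 30 fell on total-count scaling. The protease Ctsf (1.11 ± 0.04), the autophagosome protein Gabarapl1 (0.77 ± 0.04) and Tfeb, which activates lysosomal genes (0.38 ± 0.06), rose, and Atg12 (-0.42 ± 0.04) and Wipi1 (-0.36 ± 0.04) fell.

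Antioxidant, glutathione and aldehyde enzymes were more often higher: 23 of 47 tested genes rose and 9 fell, and 21 rose and 13 fell on total-count scaling. Sod2, the superoxide dismutase of the mitochondrial matrix, had normalized counts of 8437, 8562 and 8811 with LacZ and 44207, 39757 and 41799 with FL (2.28 ± 0.04), and the glutathione transferase Gsto1 had 8419, 9080 and 8766 with LacZ and 51069, 44691 and 48589 with FL (2.46 ± 0.04). Aldh1b1, a mitochondrial aldehyde dehydrogenase, rose (2.34 ± 0.14). The retinal-oxidising Aldh1a3 (-0.77 ± 0.07) and the cytosolic thioredoxin Txn1 (-0.31 ± 0.04) fell.

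The cytosolic machinery of translation was divided. Among cytosolic tRNA synthetases and initiation factors 28 of 43 tested genes rose and 7 fell, and 19 rose and 13 fell on total-count scaling. Eef1a2, the elongation factor form of adult muscle and neurons, had normalized counts of 93.3, 74.4 and 83.4 with LacZ and 1824, 1693 and 1911 with FL (4.42 ± 0.09), while its counterpart Eef1a1 had 913644, 900716 and 903380 with LacZ and 841994, 817504 and 819206 with FL. The glycine and tryptophan tRNA synthetases Gars (1.81 ± 0.04) and Wars (1.48 ± 0.04) rose, and Dars (-0.21 ± 0.04) and Eif4a1 (-0.16 ± 0.04) fell. Of 50 cytosolic ribosomal proteins 14 fell (28.0%, near the 28.3% of all tested genes) and 2 rose (4.00%, against 30.9%). Total-count scaling gave 1 rise and 28 falls. With the authors' scaling the fallen count was 7 without LacZ replicate 3 and 9 without FL replicate 2. The risen count was 1 without LacZ replicate 1, FL replicate 1 or FL replicate 3. Rpl14 (-0.34 ± 0.04) and Rpl10a (-0.23 ± 0.04) fell and Rpl27 rose (0.21 ± 0.04). Ribosomal protein genes have many pseudogene copies that may share their reads.

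In the nucleus, genes of DNA replication and mitosis were higher in most cases, at modest size: 34 of 45 tested genes rose and 4 fell (median 0.47). The clamp loader Rfc4 (1.03 ± 0.05), cyclin Ccne2 (0.92 ± 0.07) and Birc5 of the mitotic spindle (0.90 ± 0.07) rose most. The cell-cycle transcription factor E2f2 had normalized counts of 12711, 12658 and 12308 with LacZ and 5660, 5636 and 5454 with FL and fell by 1.17, with E2f8 (-0.47 ± 0.05) and E2f1 (-0.30 ± 0.04). In the list of DNA damage and p53 14 of 38 tested genes rose (36.8%, against 30.9% of all) and 12 fell (31.6%, against 28.3%). Total-count scaling gave 11 rises and 16 falls. Ung, which removes uracil from nuclear and mitochondrial DNA, had 178, 209 and 193 with LacZ and 1719, 1593 and 1616 with FL (3.08 ± 0.07), and the mitochondrial DNA polymerase Polg (0.83 ± 0.04) and Xrcc6 of strand-break repair (0.81 ± 0.04) rose. Cdkn1a, the inhibitor p21 that holds myotubes out of the cell cycle, had 137200, 141382 and 137230 with LacZ and 83093, 79328 and 79656 with FL (-0.78 ± 0.04), and the pro-apoptotic Pmaip1 fell (-0.68 ± 0.04).

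Chromatin enzymes and most splicing genes changed by small amounts. Among chromatin enzymes 12 of 50 tested genes rose (24.0%, against 30.9% of all) and 17 fell (34.0%, against 28.3%). Total-count scaling gave 9 rises and 27 falls. The arginine methyltransferase Prmt1 (0.60 ± 0.04), the demethylase Kdm6b (0.56 ± 0.04) and Kmt5a (0.53 ± 0.04) rose, and Hdac9, a repressor of MEF2 (-0.67 ± 0.06), and Setd7 (-0.50 ± 0.04) fell. Among SR proteins, hnRNPs and splicing kinases 11 of 46 tested genes rose (23.9%) and 17 fell (37.0%), and 4 rose and 28 fell on total-count scaling. Srpk3, a muscle splicing kinase, had normalized counts of 3621, 3970 and 3363 with LacZ and 824, 721 and 733 with FL, and the muscle and neuron splicing factor Rbfox1 had 1567, 1615 and 1608 with LacZ and 437, 420 and 481 with FL. They fell by 2.26 and 1.84, the most in the list, while Mbnl2 (0.55 ± 0.04), Mbnl3 (0.40 ± 0.07) and Clk3 (0.30 ± 0.04) rose.

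Across all genes with a LacZ mean of at least 100, the highest changes after Ppargc1a came from metabolic enzymes as well as genes outside the lists. Ckmt2, Chchd10, Ldhb and Slc2a4 were among them. Bdh1, the mitochondrial enzyme that oxidises the ketone body beta-hydroxybutyrate, had normalized counts of 169, 142 and 195 with LacZ and 14470, 12746 and 13676 with FL, a log2 fold change of 6.34 ± 0.12 (limma, adjusted p = 3.4e-09). The kinase gene Cdk15 had 117, 109 and 116 with LacZ and 5207, 4706 and 4963 with FL. The uridine phosphorylase Upp1 (4.60 ± 0.05), the aldo-keto reductase Akr1b7 (4.38 ± 0.10), the actin regulator Wipf3 (4.30 ± 0.07), Crybg2 (4.20 ± 0.05) and Fam161b (4.13 ± 0.05) followed. Bdh1 and Cdk15 were low in each LacZ library and high in each FL library.

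The lowest changes under the same rule came from genes of moderate to low level. Dppa2, known as a factor of pluripotent cells and early development, had normalized counts of 128, 95.9 and 124 with LacZ and 5.70, 6.42 and 2.29 with FL (-4.41 ± 0.28), and Ccr9, a chemokine receptor, had 226, 222 and 267 with LacZ and 13.7, 17.4 and 5.72 with FL (-4.29 ± 0.33). The epithelial transcription factor Grhl3 had 1842, 1963 and 1743 with LacZ and 205, 180 and 164 with FL (-3.34 ± 0.08). These groups did not overlap, and the rule asks for that. Lrrc26, a potassium channel auxiliary protein (-4.13 ± 0.17), Ly6a2, annotated as a transcribed pseudogene (-3.38 ± 0.06), the glycosyltransferase Galnt5 (-3.21 ± 0.18), Rnase6 (-3.21 ± 0.19), Gpha2, a glycoprotein hormone subunit (-3.20 ± 0.15), the joint-forming ligand Gdf5 (-3.12 ± 0.09), Mroh2a (-3.10 ± 0.12) and Asb10 (-3.07 ± 0.21) were the others, beside Hsd17b13 of the lipid droplet list (-3.98 ± 0.09). Ly6a2 belongs to the Ly6 family of similar genes, so its reads may have been divided between them.

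Genes close to 0 in a group were mostly those close to 0 with LacZ. Of the genes that rose, 76 had at most 3 reads over the 3 LacZ libraries, and 1 gene that fell had at most 3 over the FL libraries. Fitted changes of such genes depend on the added count of 1 and are not a measure of their true ratio.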

How the data were processed

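C2C12 myotubes with FL or LacZ virus gave 3 libraries each from polyadenylated RNA, prepared with a stranded kit per the labels' protocols. Per the submitters' processing notes the tools were featureCounts 1.6.4, STAR 2.7.2b, DESeq2 2.11.40.6, FastQC 0.72 and Trim Galore 0.4.3.1, on the build mm10. Whether counting used the strand is not given in the sources used here, so reads of overlapping genes on opposite strands may be mixed.

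Each deposited column is a signal, named counts per the file headers, in which the authors divided whole reads by a size factor of each library; 100.0% of 159160 values above 0 came out as whole reads within 0.001. The authors' log2 fold changes and the authors' p-values stand in the same deposited table and were not used. In 14 cases a gene symbol turned into a date was restored from its identifier.

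FL and LacZ were compared with limma 3.58.1 (trend, robust) in R 4.3.3 on log2(value + 1), two-sided, with Benjamini-Hochberg adjustment over 18227 genes and a threshold of 0.05. Fold changes on this scale understate those of low genes. The steps were tested on simulated data. P-values measure the spread between libraries that the design text calls biological replicates. A group with 0 reads was set at a floor of 3 reads, and 1 to 3 reads gave a ratio with a 95% exact interval, both covering counting error only. edgeR 4.0.16 and DESeq2 1.42.0 on the recovered reads, other scalings, filters and pseudocounts, and leaving out each library were alternatives.

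The 64 gene lists hold 2030 genes, of which 1932 passed the filter and 54 stand in more than 1 list, and they are described by counts without a test of the list. The members, lists and motifs were chosen with earlier results of these data known. Named genes are the 10 largest rises and falls in normalized count, the 12 highest and lowest log2 fold changes with a LacZ mean of at least 100, and in each list the 3 highest, the 2 lowest and those against the list's direction. The first 3 kinds were required to have groups that do not overlap. Of 341 such genes, 23 lost the call under an alternative other than a minimum change and are not named, apart from Fn1 and Ucp3; they stay in the counts of their lists. Some further genes chosen by these rules are not reported here. Promoters are from RefSeq (GRCm38.p6) for genes with 1 listed promoter.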

Additional observations from a re-analysis of the deposited data

How the results depend on the processing

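Of 341 named genes 0 changed sign under the alternatives run. They had been chosen for passing the test, and in only 3 did the groups overlap. That choice left little room for a change of sign, so the 0 is no measure of stability. The balance of rises and falls did turn. On total-count scaling the lower genes outnumbered the higher, 7138 to 4591, and the balance turned in 9 of 64 lists. The 5637 higher and 5162 lower genes became 5533 and 5398 with TMM scaling, 5663 and 5188 with edgeR and 5315 and 4799 with DESeq2. Testing against a minimum change of 1.5-fold left 1825 higher and 854 lower genes, since that test asks for more than a change from 0. The 801 genes at least 2-fold lower became 477 with a filter at a mean of 50 and 1310 with no filter, as these filters remove or add genes of low level. Without 1 library the counts were 5264 to 5525 higher, 4698 to 5051 lower, 1546 to 1605 at least 2-fold higher, 789 to 822 at least 2-fold lower and 4754 to 5072 within 1.2-fold. The differences in shares of reads moved by less than the spread between libraries.

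The replicate numbers are shared by the groups, but libraries of the same number did not deviate together (correlations -0.02, -0.039 and 0.029). With the replicate block 5624 genes were higher and 5096 lower. Of 128 counts of list members, 25 moved by over 1.5 times with total-count scaling, 109 with the minimum change of 1.5-fold, 0 with edgeR and 0 with the replicate block, and 2 with DESeq2. Of the 341 named genes 20 lost the call without 1 library. Of the cristae list 1 member fell without LacZ replicate 1, and of the myoblast markers 1 fell without FL replicate 2, where 0 fell with all libraries. Arms of 2 libraries share the estimate of spread with the other group. Genes below a mean of 10, among them 98 of the listed genes, were not compared.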

Other observations

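Markers of cell types other than myotubes were read as a check of the cultures. Of 8 tested fibroblast markers 3 rose and 1 fell, and 1 rose and 3 fell on total-count scaling, with summed normalized counts of 573182 to 588906 with LacZ and 563151 to 574126 with FL. Fap rose (0.82 ± 0.25) and Dcn, a small matrix proteoglycan, fell (-0.19 ± 0.04), and Tcf21 was listed at 0 in all libraries. Of 6 tested macrophage markers 1 rose and 2 fell, and the summed counts were 785 to 824 with LacZ and 786 to 907 with FL; 1 fell without LacZ replicate 2, LacZ replicate 3 or FL replicate 2, and 2 rose without LacZ replicate 2. Of 3 tested endothelial markers 2 fell, 1 without LacZ replicate 2 or FL replicate 2, with sums of 298 to 338 and 227 to 260. Of 6 tested markers of neurons and glia 1 rose and 1 fell, with sums of 6997 to 7687 and 8302 to 8868. The gene that rose was Nefl, the light neurofilament, with 128, 164 and 207 with LacZ and 2682, 2374 and 2629 with FL, and the gene that fell was Tubb3 (-0.51 ± 0.05). Snap25 of neurons had 0 reads in all 6 libraries. Both tested adipocyte markers, Pparg and Cidec, rose, and Cfd had 0 reads.

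In the mitochondrial ribosome the largest rises were those of Mrpl47 (2.26 ± 0.04), Mrps18b (1.81 ± 0.04) and Mrpl12 (1.75 ± 0.05). The proliferation genes Mki67 (3186, 2683 and 3157 with LacZ and 4499, 4938 and 4799 with FL) and Top2a (4757, 3915 and 4791 with LacZ and 6589, 7019 and 6942 with FL) were among the 4 myoblast markers that rose, with Myf5 and the adhesion protein Vcam1, while Pax7 and Cd34 did not pass the test. Vcam1, Pax7 and Cd34 were named after their values were seen.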
